A study of Mus musculus with 2 samples.

Results

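The genes described here are 8 complement components and receptors of the mouse: C1qa, C1qb and C1qc, which encode the chains of C1q, C3, Cfb (factor B), Cfp (properdin), and the receptor genes C3ar1 and C5ar1. They were chosen by symbol from the 55536 annotated genes of the tables, of which 22028 are protein-coding, and all 8 were found. RNA came from macrophages grown from bone marrow of C57BL/6J mice, a primary cell culture, and every culture had received lipid A, the part of lipopolysaccharide that Toll-like receptor 4 recognises, at 100 ng/ml for 25 min. The RNA was depleted of ribosomal RNA and taken from the nucleoplasm according to the description, while another label gives the fraction as nuclear. The labels name 2 biological replicates with the same donor entry, made from 500 ng of RNA (replicate 1) and 1 µg (replicate 2), and do not record sex or age. The 2 libraries form 1 group, with no untreated cells and no other cell fraction, so no response to lipid A and no retention in the nucleus was measured, and no test between groups was possible.

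Complement is a cascade of plasma and cell-surface proteins that tags microbes and dying cells for uptake. C1q starts the classical pathway by binding antibody complexes and other surfaces, C3 is the protein at which all pathways meet, and factor B and properdin build and stabilise the convertase of the alternative pathway. The fragments C3a and C5a are sensed by the receptors that C3ar1 and C5ar1 encode. Most circulating complement comes from the liver, whereas C1q and properdin are known as products of myeloid cells.

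The gene tables held 13506939 estimated counts in replicate 1 and 17932332 in replicate 2, and the 8 genes took 0.135% and 0.158% of them. The chi-square of their counts was 52.4 per degree of freedom over 15442 genes, far past what counting error alone gives, so they were kept as separate samples. Of 15 macrophage markers, 14 reached 1 TPM (a level per unit of transcript length, scaled to the same total in each library) in both libraries, and Ctsb had the highest mean, with 2167 and 1536 TPM. Marco, a scavenger receptor of macrophages, was the exception. All mean ± SD values below are over n = 2 libraries, and the SD measures only the spread between these libraries.

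Of the 8 complement genes, 7 had at least 1 TPM in both libraries, against 44.5% of all protein-coding genes (9806 of 22028), and Cfb was below it in both. The median TPM over the 8 genes was 105 in replicate 1 and 82.8 in replicate 2 (93.8 ± 15.6), while the median protein-coding gene stood at 0.77 and 0.43 TPM. By mean TPM the order was C1qb, C1qc, Cfp, C3ar1, C5ar1, C1qa, C3 and Cfb. The ranges of the libraries were apart for 5 of the 7 neighbouring pairs in this order. C1qc and Cfp could not be ordered, since Cfp was higher in replicate 1 and C1qc in replicate 2, nor could C3ar1 and C5ar1, whose ranges overlapped. In CPM (counts scaled to library depth, not to transcript length), 5 of the 28 pairs turned, 4 of which were apart in TPM: C3ar1, the longest of the transcripts involved, then stood above C1qb, C1qc and Cfp, and C5ar1 above C1qc. In bulk RNA, fewer cells that express a gene and less RNA per cell cannot be told apart.

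**Figure D1:**
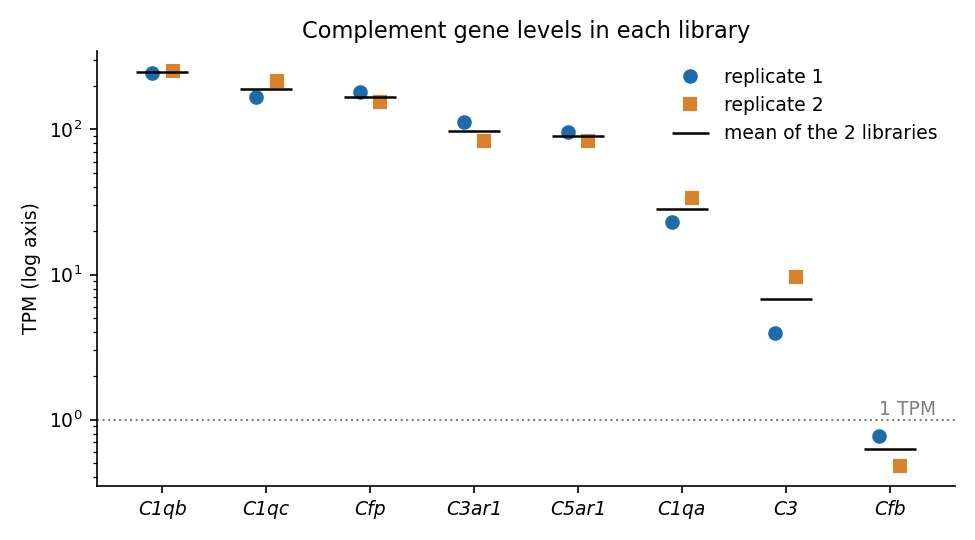
Level of each of the 8 complement genes in both libraries, in TPM on a log axis, with 1 point per library. The 6 genes from C1qb to C1qa lie above 20 TPM in both, C3 lies at 3.97 and 9.60 TPM, and Cfb lies below 1 TPM.

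Beside the levels, the promoter sequences are shown for the highest of the genes (C1qb), for the gene with the largest difference between the libraries (C3) and for a receptor gene (C3ar1). Each runs from 250 bases before to 20 bases into the RefSeq start of the gene, on the minus strand of build GRCm38.p6, at chr4:136886181-136886450, chr17:57228117-57228386 and chr6:122856138-122856407. Capitals mark matches to the motifs searched, which are set out further down.
C1qb: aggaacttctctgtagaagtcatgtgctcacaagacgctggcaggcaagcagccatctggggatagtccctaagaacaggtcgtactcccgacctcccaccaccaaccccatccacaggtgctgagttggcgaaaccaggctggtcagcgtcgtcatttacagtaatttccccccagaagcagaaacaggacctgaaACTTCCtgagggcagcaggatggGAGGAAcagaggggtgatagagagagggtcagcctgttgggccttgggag
C3: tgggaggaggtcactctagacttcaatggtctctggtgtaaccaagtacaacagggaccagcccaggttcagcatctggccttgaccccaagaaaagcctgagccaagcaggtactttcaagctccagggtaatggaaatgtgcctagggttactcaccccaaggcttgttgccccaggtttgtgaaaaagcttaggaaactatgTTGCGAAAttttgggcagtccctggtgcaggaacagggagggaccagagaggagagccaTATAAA
C3ar1: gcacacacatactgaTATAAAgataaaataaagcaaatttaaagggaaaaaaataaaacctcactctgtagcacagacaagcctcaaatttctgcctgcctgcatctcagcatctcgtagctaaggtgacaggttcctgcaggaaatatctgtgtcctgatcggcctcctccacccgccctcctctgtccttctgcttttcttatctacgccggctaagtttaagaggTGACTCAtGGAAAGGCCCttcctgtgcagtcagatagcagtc

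The chains of C1q. C1qb had 245 TPM in replicate 1 and 255 in replicate 2 (250.0 ± 6.67), from 2928 and 5286 estimated counts. It ranked 150 and 108 among the 22028 protein-coding genes. C1qc had 167 and 214 TPM (191 ± 33.3), from 2189 and 4872 counts, with ranks of 241 and 139. C1qb and C1qc therefore stood near the top of the protein-coding genes in both libraries, C1qb in the highest 0.681% and 0.490% and C1qc in the highest 1.09% and 0.631%. C1qa, in contrast, had 23.1 and 33.6 TPM (28.4 ± 7.42), from 261 and 661 counts, and ranked 2822 and 1310. Each library of C1qa lay below both libraries of C1qb and of C1qc.

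C1q protein is built from equal numbers of its A, B and C chains, while the levels of the genes were unequal in this RNA. Within a library, where no scaling between libraries enters, C1qb exceeded C1qa 10.6-fold in replicate 1 and 7.57-fold in replicate 2, a log2 ratio of 3.16 ± 0.34. C1qc exceeded C1qa 7.23-fold and 6.38-fold, a log2 ratio of 2.76 ± 0.13. C1qb and C1qc differed much less from each other, with log2 ratios of 0.55 and 0.25 (0.40 ± 0.21). In the tables that were estimated without an alignment, log2 ratios of C1qb to C1qa were 3.43 and 3.03 and those of C1qc to C1qa were 2.83 and 2.66, so the order of the chains did not rest on the aligned tables.

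The 3 genes lie side by side on chromosome 4 of mm10, all on the minus strand. C1qa (ENSMUSG00000036887.5) spans 136895917 to 136898803, C1qc (ENSMUSG00000036896.5) spans 136889804 to 136893065, and C1qb (ENSMUSG00000036905.8) spans 136880129 to 136886187. In the direction of transcription C1qa comes before C1qc and C1qb, with 2851 bases between C1qa and C1qc and 3616 between C1qc and C1qb. The genes are alike in structure: each has 3 exons, the main transcripts are 1040 (C1qa), 1203 (C1qc) and 1088 bases (C1qb) long, and their GC content is 59.5%, 57.5% and 57.4%. The 31-base words of C1qa (0 of 1010), C1qb (0 of 1058) and C1qc (0 of 1900) did not occur in annotated transcripts of other genes. Introns and unannotated sequence were not searched.

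**Figure D2:**
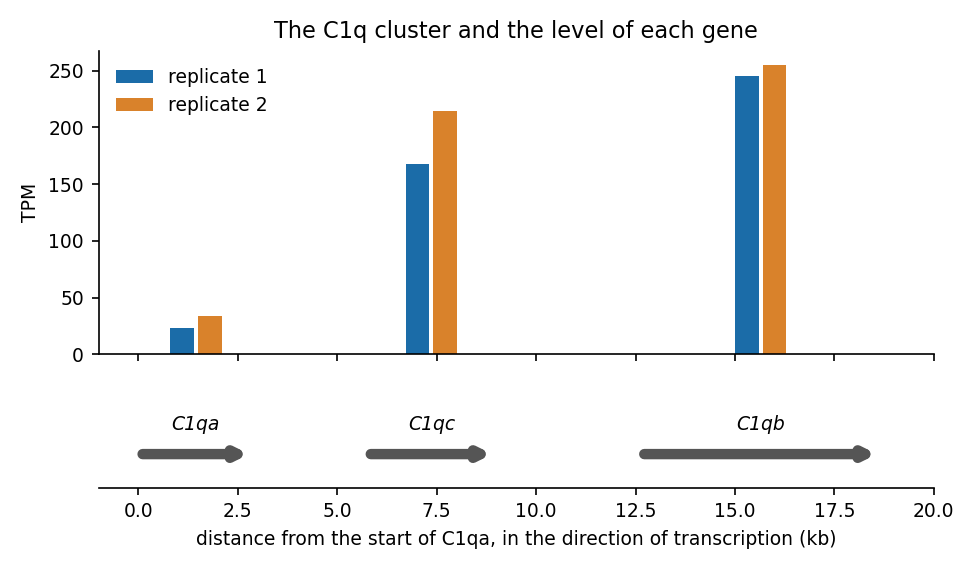
Level of C1qa, C1qc and C1qb in TPM (bars, 1 per library) above the positions of the genes, as distance from the start of C1qa in kilobases. Arrows show the direction of transcription, and C1qa stands lowest in both libraries at 23.1 and 33.6 TPM.

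C3 and the alternative pathway. Cfp, on chromosome X (ENSMUSG00000001128.7, 20925454 to 20931555), encodes properdin, the stabiliser of the alternative pathway convertase. It had 181 and 155 TPM (168 ± 17.8), from 3344 and 4649 counts, and ranked 218 and 199 among protein-coding genes. C3, on chromosome 17 (ENSMUSG00000024164.15, 57203970 to 57228136), had 3.97 and 9.60 TPM (6.79 ± 3.98), from 195 and 716 counts. Properdin RNA thus stood far above C3 RNA, 45.5-fold in replicate 1 and 16.2-fold in replicate 2. Cfb, the protease precursor that binds C3b, had 0.77 and 0.48 TPM (0.63 ± 0.21) from 17 and 24 counts.

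Cfb had 1.26 CPM (95% Wilson interval 0.786 to 2.02) and 1.34 CPM (0.899 to 1.99), above the 0.222 and 0.167 CPM that a count of 0 would allow. C3 had 14.4 CPM (12.5 to 16.6) and 39.9 CPM (37.1 to 43.0). These intervals cover counting error only, and those of C3 did not overlap between the libraries while those of Cfb did. C3 exceeded Cfb 5.16-fold and 20.0-fold in TPM, so the size of that gap depended on the library.

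Cfb is also the gene whose counts are least certain. Of the 8 genes, 2 overlap other annotated genes, the microRNA gene Mir6978 in C3, and Gm20547 and Mir6972 in Cfb. It spans 34856374 to 34862518 on chromosome 17 (ENSMUSG00000090231.10), and Gm20547, annotated on the same strand, overlaps it by 6107 bases. Of the 2936 words of 31 bases in Cfb transcripts, 2218 (75.5%) also occur in Gm20547. The gene table gave Gm20547 0 counts in both libraries, and the alignment-free table gave it 0 and 12.3. For Cfb itself the alignment-free table gave 87 and 78.0 estimated counts in place of 17 and 24, and 1.42 and 0.375 TPM. Cfb was therefore near 1 TPM by either measure, and on which side of 1 TPM it fell depended on the table for replicate 1. The alignment-free tables held 1.87 and 1.47 times the counts of the gene tables in all. For Cfb that factor was 5.12 and 3.25, and for C3 it was 3.09 and 2.22. For the other 6 genes it was at most 1.75 in replicate 1 and 1.33 in replicate 2, so C3 and Cfb were the genes of the 8 that gained more than the libraries did. C2, the classical pathway counterpart that neighbours Cfb, had 4 and 15 counts (0.12 and 0.31 TPM) in the gene tables. The alignment-free tables gave C2 212 and 191 counts (7.42 and 1.84 TPM), a larger shift than for C3 or Cfb, and its cause was not tested.

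The receptors. C3ar1, on chromosome 6 (ENSMUSG00000040552.8, 122847138 to 122856161), had 113 and 82.8 TPM (98.0 ± 21.5), from 6333 and 7835 counts. C5ar1, on chromosome 7 (ENSMUSG00000049130.6, 16246743 to 16259540), had 96.4 and 82.7 TPM (89.6 ± 9.74), from 2995 and 4374 counts. Both encode G protein-coupled receptors for the small fragments of the cascade, and both ranked between 407 and 490 among protein-coding genes in both libraries. The log2 ratio of C3ar1 to C5ar1 was 0.23 in replicate 1 and 0.0028 in replicate 2, a difference no larger than the spread. The alignment-free tables put C5ar1 above C3ar1, with log2 ratios of C3ar1 to C5ar1 of -0.085 and -0.47. C5ar2, the second receptor of C5a and a neighbour of C5ar1, had 2.78 and 2.27 TPM, so C5ar1 exceeded it 34.7-fold and 36.4-fold (log2 ratio 5.15 ± 0.05).

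Differences between the libraries. The TPM of a gene in replicate 2 was set against replicate 1 as a log2 ratio of TPM + 1, from which the median over the 14584 genes that had 10 or more counts per library (-0.42) was subtracted. C3 was the 1 gene of the 8 that passed 2-fold, with 1.52 on that scale, where 1.22% of all genes (178 of 14584) were over 2-fold higher in replicate 2 and 71 were over 2-fold lower. That balance depended on the processing, with 52 higher and 518 lower for TPM as deposited without centring, 623 and 694 in the alignment-free tables, and 451 and 454 with no minimum of counts. The C1q genes came next, with 0.94 for C1qa, 0.78 for C1qc and 0.48 for C1qb. Cfp (0.21), C5ar1 (0.20), Cfb (0.17) and C3ar1 (-0.02) stayed close to the median gene. These ratios compare 1 library with 1 library and carry no test.

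For C3 the ratio was 1.73 with the size factors of DESeq2 and 1.71 with TMM scaling. Without alignment it was 0.92, under 2-fold, although the alignment-free tables gave C3 more counts (602 and 1593). The median ratio was 0.34 over the 8 complement genes, 0.57 over 10 genes known for an early response to lipid A and 0.05 over the macrophage markers. The libraries also differed in RNA input (500 ng and 1 µg), and the part of input or of the culture in the C3 ratio was not tested. C3 is made in bulk by hepatocytes, and the 8 hepatocyte markers were all under 5 counts in both gene tables, 4 of them at 0, with a summed level of 0.19 and 0.39 TPM and Apoa2 highest (0 and 0.30 TPM). The 7 fibroblast markers summed to 4.40 and 0.25 TPM, of which Dcn gave 2.71 and 0 TPM from 5 and 0 counts, and their part in the C3 ratio was not tested.

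**Figure D3:**
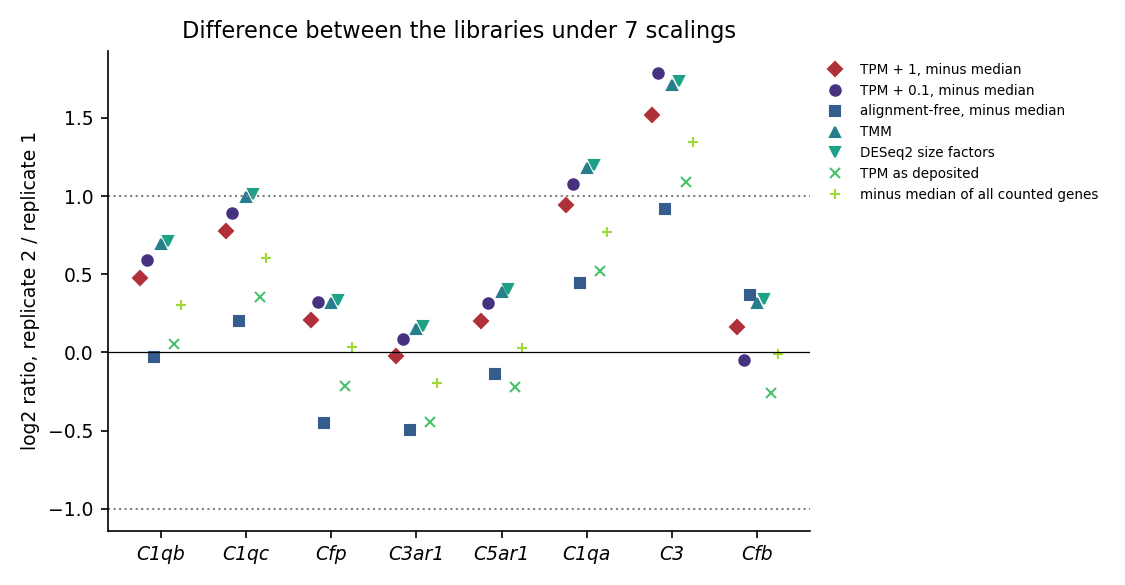
Log2 ratio of replicate 2 over replicate 1 for each complement gene, under the main scaling and the alternative ones, with dotted lines at 2-fold. The main scaling uses TPM + 1, after subtraction of the median over 14584 genes. On it C3 is beyond 2-fold at 1.52, and C1qa lies just inside at 0.94. C3 is inside 2-fold in the alignment-free table (0.92). C1qa is beyond it with a pseudocount of 0.1 TPM (1.07), with TMM (1.18) and with DESeq2 size factors.

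Transcripts. The 8 genes have 22 annotated transcripts: 3 genes have 1 transcript each (C1qa, C1qb and C3ar1) and 5 have several. None of the 8 has a transcript annotated as retaining an intron, while 41.4% of protein-coding genes (9119 of 22028) have one, so the planned share of such transcripts could not be computed. The same transcript led in both libraries for 4 of the 5 genes with several, and these 4 kept it in the alignment-free tables. Cfb was the exception.

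C1qc has a second, non-coding transcript, C1qc-202, of which 728 of 946 bases lie in the introns of the coding transcript C1qc-201. C1qc-202 held 12.2% and 11.5% of the gene's TPM (11.9 ± 0.54) and 9.34% and 8.83% of its counts. In the alignment-free tables its share was 12.8% and 13.2%, so the share of C1qc-202 was close in all 4 measures. Unspliced C1qc RNA and C1qc-202 share those intronic bases and cannot be told apart here.

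For the other genes the secondary shares moved more. Cfp-202, a non-coding transcript of 401 bases, held 5.46% and 12.1% of Cfp, and 24.1% and 20.9% in the alignment-free tables. The main coding transcript led C5ar1 with 92.4% and 86.6%, against 71.2% and 42.7% without alignment. The transcript of 41 exons and 5136 bases that encodes C3 held 70.2% and 62.0% of the gene's TPM but 96.3% and 94.4% of its counts. The remaining TPM of C3 in the aligned tables went to C3-202 (29.8% and 38.0%), a transcript of 662 bases. For Cfb, TPM was split between Cfb-202 (50.7%) and Cfb-205 (49.3%) in replicate 1, where Cfb-202 held 79.5% of 17 counts. In replicate 2 Cfb-201 led with 79.0% of TPM and 93.1% of 24 counts.

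**Figure D4:**
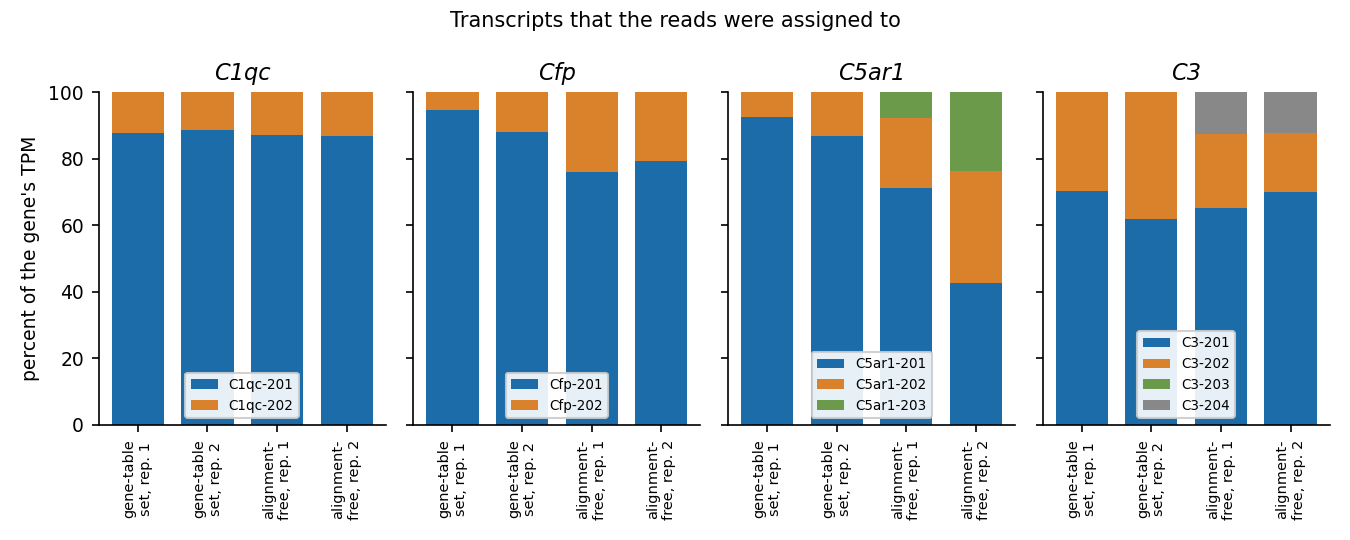
Share of each gene's TPM in its annotated transcripts, in percent, for C1qc, Cfp, C5ar1 and C3, in the aligned and the alignment-free tables of both libraries. C1qc-202 keeps between 11.5% and 13.2% in all 4. Cfb, which also has several transcripts, is not shown.

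Other genes of the cascade. The wider complement system was taken as 57 genes in 7 lists by role, and 19 had at least 1 TPM in both libraries, 7 of the 8 described above and 12 of the other 49. Of all protein-coding genes 44.5% (9806 of 22028) did, the share to set beside the gene-table count of each list below. No such share stands beside the numbers from the alignment-free tables, where 1 TPM is not a like threshold. The median TPM over the 8 complement genes was 93.8 in the gene tables and 35.1 in the alignment-free tables. In the classical pathway, 3 of 10 passed, which were the C1q genes, and 4 did in the alignment-free tables, with C2 as the addition. C1ra, the protease that C1q activates in its complex, had 0.50 and 0.72 TPM from 19 and 46 counts. C1s1, its partner, had 1 and 0 counts, so both proteases that act with C1q lay below every C1q gene in both libraries. C4a (18.6 and 30.4 counts) and C4b (13.4 and 30.6 counts) are near-identical copies, and the split of reads between them is uncertain.

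In the alternative pathway with C3, 2 of 4 passed, Cfp and C3. Cfd, the protease that cleaves factor B, had 1 count in each library. In the lectin pathway 1 of 8 passed, Fcna (1.26 and 2.42 TPM), a pattern recognition protein, and none passed in the alignment-free tables. Masp1 (0.49 and 0.02 TPM) and Fcnb (0.33 and 0 TPM) came next. Masp1 had 23 and 2 counts in the gene tables but 542 and 287 in the alignment-free tables (2.36 and 0.39 TPM). The cause of that shift was not tested. None of the 7 terminal pathway genes passed, with C8g (0.89 and 0.92 TPM), Hc (0.49 and 0 TPM) and C8a (0.07 and 0 TPM) highest. In the gene tables every terminal pathway gene listed was thus below 1 TPM in both libraries, whereas the C1q genes and Cfp were above 20 TPM.

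Among membrane regulators 2 of 7 passed, Cr1l (31.2 and 22.3 TPM), which encodes the rodent inhibitor Crry, and Cd46 (4.30 and 2.85 TPM), while Cd55 had 0.85 and 0.63 TPM. The list of receptors was the fullest, with 10 of 12 in the gene tables and 7 of 12 in the alignment-free tables. There C5ar2, Itgax and C1qbp were under 1 TPM in replicate 2 only (0.74, 0.71 and 0.92 TPM). C5ar2 had more counts without alignment (385 and 339) than in the gene tables (121 and 169). Besides C3ar1, C5ar1 and C5ar2 it held the C3 receptor integrins Itgb2 (151 and 119 TPM), Itgam (42.6 and 33.0 TPM) and Itgax (3.19 and 2.64 TPM). It also held genes linked to C1q binding: Lrp1 (550 and 344 TPM), Calr (271 and 195 TPM), Cd93 (127 and 77.4 TPM) and C1qbp (3.36 and 2.51 TPM). The receptors below 1 TPM in both libraries were Cr2 (0.82 and 0.93 TPM) and Vsig4 (0.36 and 0.28 TPM).

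As medians of log2(TPM + 1), the 8 complement genes stood at 6.55 ± 0.24, the receptor list at 5.86 ± 0.24 and the classical list at 0.68 ± 0.10. Alternative pathway genes with C3 stood at 1.78 ± 0.30 and terminal pathway genes at 0.02 ± 0.03. All protein-coding genes stood at 0.67 ± 0.22, macrophage markers at 7.37 ± 0.28 and the 10 early lipid A genes at 8.90 ± 0.07.

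**Figure D5:**
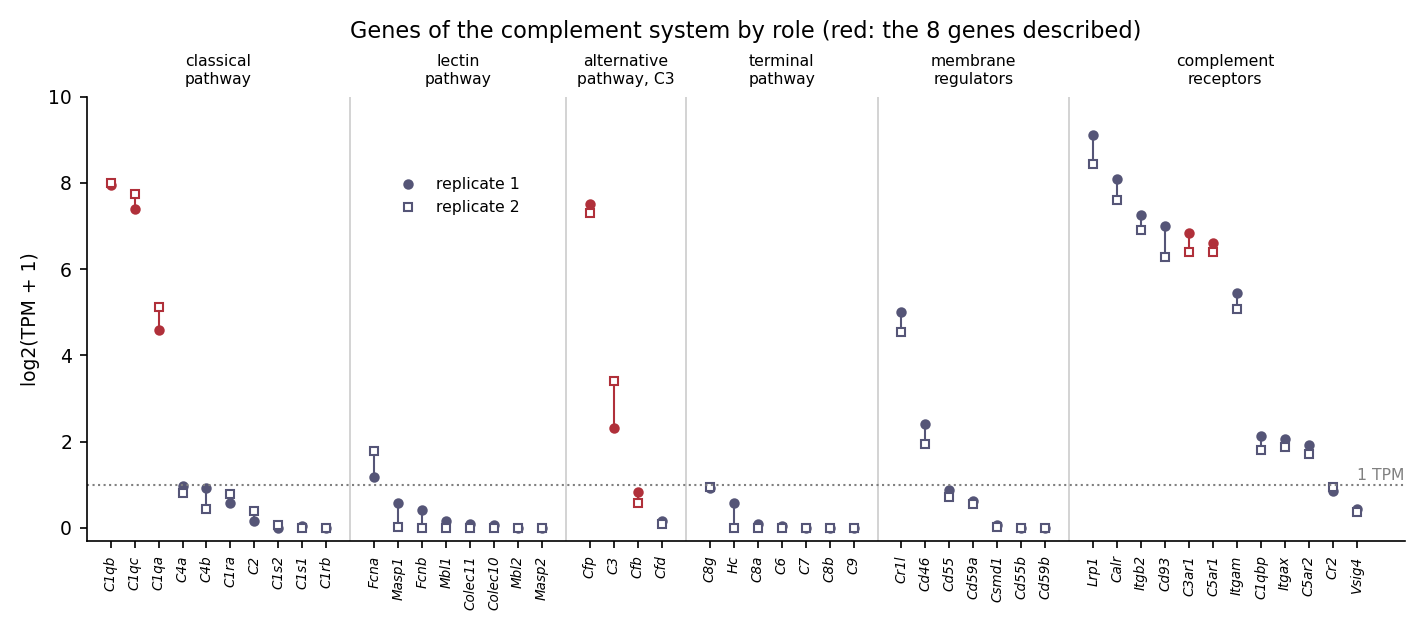
Level of 48 of the complement genes, those of 6 lists, as log2(TPM + 1), sorted by role, with a filled circle for replicate 1 and an open square for replicate 2, and a dotted line at 1 TPM. The 8 genes described are in red. Of the others shown, 11 reach 1 TPM in both libraries, and 8 of those 11 are receptors.

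Markers of other cells. Neutrophils also make properdin and carry C5ar1, and of 10 neutrophil markers 3 passed 1 TPM in both gene tables (0 in the alignment-free tables), with Mmp8 highest at 2.41 and 2.55 TPM. S100a9 (1.72 and 1.58 TPM) and Ngp (1.09 and 1.17 TPM) also passed in the gene tables. Ly6g and Retnlg were the 2 of the 10 at 0 counts in both gene tables. The neutrophil list summed to 7.14 and 6.56 TPM. Its part in the levels of Cfp and C5ar1 was not tested. Dendritic cell markers (0 of 7, Clec9a highest) summed to 5.17 and 2.07 TPM, B cell markers (0 of 6, Cd79b highest) to 1.25 and 0.85 TPM, and mast cell markers (0 of 6) to 2.70 and 0.67 TPM, with Kit highest. Of 7 T and NK cell markers, Cd4 alone passed (29.5 and 23.8 TPM), and the list summed to 30.2 and 23.8 TPM.

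Promoter sequences. RefSeq promoters were found for 6 of the 8 genes, with none for C1qa and Cfb. Short motifs known for myeloid or lipid A-responsive factors were searched on both strands. The motif GAGGAA stands for the macrophage factor PU.1, and ACTTCC stands for its wider ETS family. C/EBP factors are represented by TTGCNNAA, AP-1 is represented by TGANTCA, and the TATA box is represented by TATAAA. NF-kB and IRF factors were each searched with a longer motif. The list was drawn up with the sequences in view, and a match describes letters only, not a bound site. The C1qb window printed above holds ACTTCC 53 bases and GAGGAA 30 bases before the start, motifs held by 21.7% and 25.1% of all 32851 promoters of this length. C1qc holds the ETS motif 195 bases and, overlapping it on the other strand, the PU.1 motif 193 bases before its RefSeq start. C5ar1 holds the ETS motif at 190 and at 72 bases. The RefSeq starts of C1qc and C5ar1 lie 151 and 202 bases inside their genes in the annotation of the tables.

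The C3 window holds TTGCGAAA, a match to TTGCNNAA (10.1% of promoters), 45 bases before the start, and TATAAA (12.9%) at its end, 14 bases after the start. C3ar1 holds TGACTCA, a match to TGANTCA (7.23% of promoters), 22 bases before the start and GGAAAGGCCC, a match to the NF-kB motif on the other strand (494 of all 32851 promoters), 14 bases before it, as well as TATAAA at 235 bases. Cfp holds the PU.1 motif on the other strand 6 bases after its start. The IRF motif (3.21% of promoters) was in none of the 6 windows (0 of 6). The count of CpG dinucleotides was 6 in C1qb, 5 in C3ar1, 3 in C5ar1, 2 in C1qc and in Cfp, and 1 in C3, with a median of 6 over all promoters.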

How the data were processed

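Nucleoplasmic RNA of 2 libraries in 1 group was analysed. Per the deposited readme, the authors aligned reads to the transcriptome (mm10, annotation M21) and derived expected counts and TPM for genes and transcripts. The deposited transcript tables also give the percent of TPM that each transcript takes within its gene. A further deposited table per library holds estimated counts and TPM computed by the authors from the reads and an index without alignment, and was summed per gene here. Names of the quantifiers, like the use of strand, were not given in the sources used here.

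Deposited TPM values were left as they were, and their total includes short RNAs. Gene types, positions and transcripts came from GENCODE M21, and promoters from RefSeq on GRCm38.p6. Depth was 13506939 and 17932332 counts in the gene tables and 25317223 and 26308342 in the alignment-free tables. For a gene at 0 counts the limit is 3 counts. Wilson intervals are at 95%. A gene counted as detected at 1 TPM or more in both libraries. Ratios between libraries used TPM + 1 and genes with at least 10 counts in both. No p-value was computed. The genes of 1 of the 7 complement lists are not reported here one by one, but enter the totals over all lists.

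All 8 complement genes are named. Of the other complement genes, those named are the ones detected in both gene tables and the 3 highest of a list, with those overlapping any of the 8 and the highest by mean of each list of cell markers. C1ra, C1s1, C4a, C4b, C2, Cfd, Cr2, Vsig4, Ly6g, Retnlg, S100a9, Ngp, Cd3d and Marco fall outside that rule and were added after their values were seen. The 8 genes, the lists, the naming rule and the alternatives were chosen with earlier results of these data known. Alternatives were the alignment-free table, CPM, other minimums and pseudocounts, TPM rescaled without mitochondrial genes and genes under 200 bases, each library alone, and TMM (edgeR 4.0.16) or DESeq2 1.42.0 size factors on rounded counts. Python 3.11.15, pandas 2.3.3 and R 4.3.3 were used, and the ratio step was tested on simulated data. Apart from the changes put in, those data held counting error alone. The wider spread between the real libraries was therefore not covered.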

Additional observations from a re-analysis of the deposited data

How the results depend on the processing

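The median TPM over the 8 complement genes was 93.8 in the gene tables, 35.1 in the alignment-free tables and 135 after rescaling without mitochondrial genes and genes under 200 bases, and 82.8 to 105 with either library left out. The log2 ratio of C1qc to C1qa was 2.76 in TPM and 2.97 in CPM. The number of the 8 genes beyond 2-fold between libraries was 1, and became 2 with a pseudocount of 0.1 TPM (C3 and C1qa), 2 with TMM scaling, 3 with DESeq2 size factors (C3, C1qa and C1qc) and 0 in the alignment-free table, where C3 was at 0.92. Over all 14584 genes, 178 were over 2-fold higher and 71 lower under the main scaling. These numbers rose to 403 and 282 with the pseudocount of 0.1 TPM, 447 and 232 with TMM, and 477 and 233 with DESeq2. In the alignment-free tables they were 623 and 694 of 23020 genes. Of the 49 other complement genes, 12 reached 1 TPM in both libraries and 7 reached 5 TPM. The cause of these shifts was not tested. Of the values that answer a comparison, 31 of 39 alternatives were labelled the same, by the spread or by a limit of 1.5 times, and 8 moved. The 8 include the log2 ratio of C1qc to C1qa in CPM, which was within 1.5 times but outside the spread between libraries. The order of levels in CPM is among the 31, although pairs turned. In CPM, 23 of the 28 pairs of the 8 genes kept their TPM order and 4 pairs that were apart in TPM turned. In the alignment-free tables it was kept by 26, and none of the 2 that turned was apart. No alternative turned the sign of the C3 difference between libraries or of a C1q chain ratio.

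No paired analysis was possible because both libraries form 1 group. Retained-intron shares gave no value under any alternative, since none of the 8 genes has such a transcript. With 2 libraries, SDs are imprecise, and Cfb rests on 17 and 24 counts.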
